A study of Mus musculus with 6 samples.

Results

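Described here are genes for meiotic recombination and for cohesin in the mouse testis: those that make, repair and resolve the programmed DNA breaks of meiosis, and those that hold sister chromatids together. Members were chosen by symbol from a list of 32 names, of which 30 matched a gene symbol in the expression files, out of 24411 genes in all. The files hold Iho1 under its older symbol Ccdc36, so the symbol rule does not reach it and its values are given apart, and Rnf212 is not analysed here. All 30 members passed the filter on low counts and were tested. By role, 5 belong to break formation, 8 to strand exchange, 7 to crossover formation, 4 to break signalling and 6 to cohesin.

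RNA was sequenced from whole testes of age-matched C57BL/6 mice, a standard inbred strain. Of the 6 libraries, 3 are labelled MRP5-/- and MRP9-/- (called DKO, for double knockout) and 3 are labelled Wildtype (WT); no treatment is labelled. MRP5 and MRP9 are ABC transporters encoded by Abcc5 and Abcc12, and the study asked what their joint loss does to male reproduction and mitochondria. How the alleles were made and the age of the mice are not given in the sources used here. Abcc12 had 72.6 to 82.4 CPM (counts scaled to library size and composition by TMM) in libraries labelled DKO and 158 to 165 in those labelled WT. Abcc5 was at 16.7 to 17.0 CPM in libraries labelled DKO and 10.5 to 12.3 in those labelled WT, which goes against the label if a loss of transcript is looked for, so groups and directions below are those of the labels. Libraries labelled DKO were deeper (42673615 to 67131103 expected counts) than those labelled WT (26753721 to 31745969) and came from longer fragments (275.5 to 317 bases against 230.4 to 258 bases), with no overlap in either. Germ-cell markers of the testis were present: the 12 elongating spermatid markers summed to 111600 to 127670 TPM (a level scaled by transcript length and library) in the 6 libraries, and the 15 late spermatocyte markers to 9219 to 9780 TPM.

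In meiotic prophase, the enzyme SPO11 cuts chromosomes at sites marked in mice by the histone methyltransferase PRDM9. Recombinases, among them the meiosis-specific DMC1, then carry the broken ends into the homologous chromosome, and a few of the resulting joints mature into crossovers, which tie homologues together until the first division. All this takes place on chromosome axes built on meiosis-specific cohesin rings, in spermatocytes, which are only some of the cells of a testis. In bulk tissue, fewer cells of a type and less RNA per cell cannot be told apart.

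No member passed the test between genotypes. At an adjusted p under 0.05 (edgeR quasi-likelihood test, adjusted over all tested genes), 0 of 30 members were called, against 10.8% of all 17110 tested genes, 5.75% higher and 5.1% lower in libraries labelled DKO. At an unadjusted p under 0.05 there were 11 of 30 members (10 higher and 1 lower in libraries labelled DKO), against 31.7% of all tested genes, and DESeq2, a different count test, called 6 of the 27 members it gave an adjusted p, 5 higher and 1 lower, against 20.8% of all genes, 11.6% higher and 9.19% lower. DKO replicate 3 weighed on this count: without it 7 members were called, all higher, against 17.7% of all genes, 11.1% higher and 6.59% lower. Estimates leaned to the side of libraries labelled DKO: the log2 fold change was above 0 for 24 of 30 members, against 49.3% of tested genes, with a median of 0.15, against -0.0042 over all tested genes. The CPM of the groups did not overlap for 17 of 30 members, 14 of them higher in libraries labelled DKO, against 35.9% of tested genes, 18.4% higher. All these values come from the same comparison and carry no separate test.

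Promoters are shown for what the members share in sequence, which the choice by symbol did not use. RefSeq promoter windows (GRCm38.p6, the assembly also called mm10; 250 bases before to 50 after a start) were found for 26 of the 30 members, in 30 windows. The entries for Spo11, Meiob, Exo1 and H2afx were not matched. Letters were searched on both strands for 4 motifs. GGCGGGAA, bound by E2F6, a repressor of germline genes in other tissues, was in 5 of 30 windows, against 2.19% of all 32851 windows and 3.52% of the 16849 windows of tested genes. CNCCTCAG, the motif of STRA8 and MEIOSIN, the switch into meiosis, was in 3 of 30, against 7.94% of all windows and 9.03% of those of tested genes. GGCNGTT, of the spermatocyte factor A-MYB, was in 6 of 30, against 12.1% of all windows and 13.5% of those of tested genes. These 6 windows belong to 5 genes, as overlapping windows of Mlh3 share a match. TGACGTCA, the cyclic AMP response element, was in 2 of 30, against 1.79% and 2.74%. The 30-base windows around the E2F6 and STRA8 letters follow, 5′ to 3′ on the strand of the gene, with matches to either motif in capitals. In Prdm9 the matches to both motifs overlap.
Prdm9 chr17:15564380-15564409 (minus strand): ttttcttgTTCCCGCCCCTCAGccagctgt
Msh5 chr17:35046678-35046707 (minus strand): cggCTGAGGTGacggaaaaGGCGGGAAagt
Hfm1 chr5:106925938-106925967 (minus strand): cggcctgaggcCTGAGGCGcaccgtgcggt
Mdc1 chr17:35841472-35841501 (plus strand): cttcagcctgtTTCCCGCCggtagccgcac
Rad51c chr11:87404942-87404971 (minus strand): tcccccgcgagGGCGGGAAaagcaaggggt
Spata22 chr11:73329725-73329754 (plus strand): gggttttcagaGGCGGGAAgttccgcgtgg

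A match describes these letters only. Of the genes in these 6 windows, Hfm1 had an unadjusted p under 0.05, and the other 5 did not. Windows of members held a median of 20 CpG dinucleotides, against 18 in windows of tested genes and 7 in all windows. The 250 bases before the start of Smc3, the member closest to the threshold, and of Rad21l, the member with the highest log2 fold change, are shown with CpG in capitals. Smc3 had 26 CpG in these bases and Rad21l had 1, and the whole window of Rad21l held 2, the fewest of the 30. The Rad21l window lies inside the annotated span of the gene (151644366 to 151670622), downstream of its outer end. It belongs to an internal start, so its CpG count need not describe the outermost promoter of Rad21l. The windows of Spata22, Hfm1 and Msh5 shown above also lie inside the annotated spans of their genes, as do some windows not shown. Their letters need not be those of the outermost promoters.
Smc3 chr19:53600146-53600395 (plus strand): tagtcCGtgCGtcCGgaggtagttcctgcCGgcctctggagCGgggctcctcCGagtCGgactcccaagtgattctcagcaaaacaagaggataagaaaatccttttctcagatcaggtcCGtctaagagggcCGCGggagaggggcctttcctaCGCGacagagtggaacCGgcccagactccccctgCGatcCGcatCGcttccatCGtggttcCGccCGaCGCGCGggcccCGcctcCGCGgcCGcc
Rad21l chr2:151668534-151668783 (minus strand): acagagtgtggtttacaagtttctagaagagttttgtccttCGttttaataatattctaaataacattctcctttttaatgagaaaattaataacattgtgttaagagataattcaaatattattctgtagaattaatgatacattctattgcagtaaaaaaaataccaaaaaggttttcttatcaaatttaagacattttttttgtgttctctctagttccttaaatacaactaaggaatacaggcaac

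Levels per length differed widely between members, also within a role. Psmc3ip, which encodes HOP2, a partner of the recombinases, was the highest at a mean of 263 TPM over 6 libraries, followed by the cohesin subunit gene Stag3 at 181 TPM and Smc1b at 84.0 TPM. Neither Psmc3ip nor Stag3 overlapped its lower neighbour in any library. From Smc1b down to Atr (43.8 TPM), each gene overlapped the next (Smc1b, Rec8, Mdc1, Spo11, H2afx, Atr). The lowest was Mei4 at 0.203 TPM, from 5 to 26 counts a library, so its difference was hardly measurable at this depth. Rec114 (33 to 80 counts) and Rad21l (32 to 102 counts) were also thinly covered. Reads of Spata22, Sgol2a, Rec114 and Psmc3ip may be shared with a neighbour, whose exons cover 80.5%, 49.7%, 38.3% and 29.8% of theirs. The neighbour of Spata22 is on the same strand and the others are on the opposite strand. Strand handling is not given in the sources used here. Expected counts of these genes were whole numbers in all 6 libraries.

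**Figure D1:**
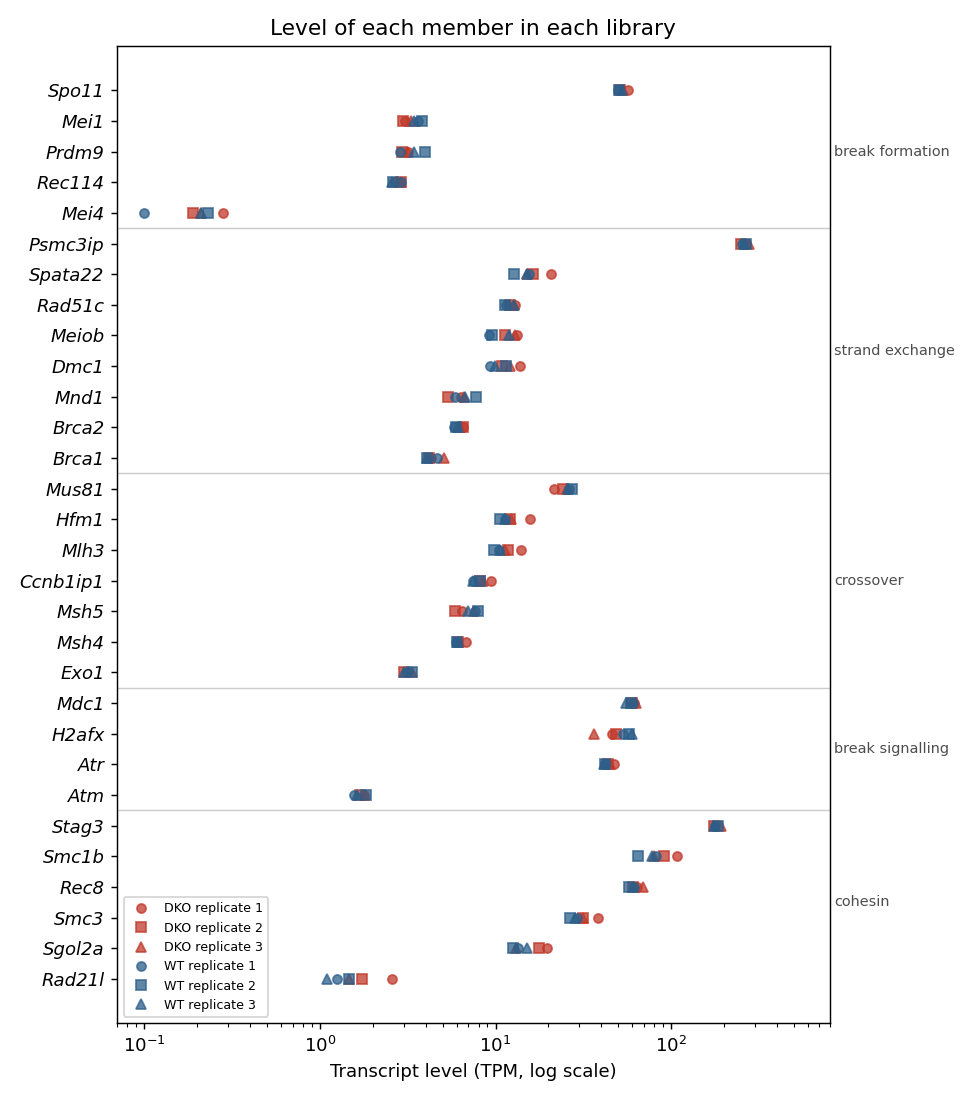
Level of each of the 30 members in each library, in TPM on a log axis, grouped by role and ordered by mean level; red symbols are libraries labelled DKO, blue those labelled WT, and the shape gives the replicate. Levels run from 0.10 TPM for Mei4 to 277 TPM for Psmc3ip, a far wider range than that between libraries of a gene. Libraries of thinly covered genes still spread, from 0.10 to 0.28 TPM for Mei4 and from 1.10 to 2.56 TPM for Rad21l.

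Among the genes of break formation, no member had an unadjusted p under 0.05, against 31.7% of all tested genes. Their median log2 fold change was 0.04. Where groups are said not to overlap, here and below, this held for 35.9% of all tested genes. Spo11, the catalytic subunit that makes the break, had 52.8, 49.1 and 48.1 CPM in libraries labelled DKO and 47.4, 44.5 and 48.3 CPM in those labelled WT (replicates 1, 2 and 3 in that order, here and below). The groups overlapped, with DKO replicate 1 highest. Its log2 fold change was 0.10 (95% interval -0.0615 to 0.255; adjusted p = 0.382). Prdm9, which marks break sites, had 7.09, 6.77 and 6.79 CPM in libraries labelled DKO and 6.34, 8.12 and 7.40 CPM in those labelled WT. Here the WT libraries spread around the DKO ones (log2 fold change -0.09, interval -0.334 to 0.161). Mei1, needed for break formation, was the member of this group whose libraries did not overlap: 7.98, 7.98 and 8.27 CPM with the label DKO and 9.45, 9.04 and 8.53 CPM with the label WT. Every library labelled WT was above every library labelled DKO, but the difference did not pass the test (log2 fold change -0.16, interval -0.362 to 0.0504; adjusted p = 0.279). Rec114 and Mei4, which form condensates with IHO1 on the axis, had log2 fold changes of 0.04 and 0.36 with intervals of -0.383 to 0.471 and -0.413 to 1.13. Ccdc36, the older symbol of their partner Iho1, had 23.7, 22.6 and 18.2 CPM in libraries labelled DKO and 18.7, 19.8 and 20.2 CPM in those labelled WT. These overlapped as well (log2 fold change 0.13, interval -0.0977 to 0.362).

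In strand exchange, 3 of 8 members had an unadjusted p under 0.05, against 31.7% of all tested genes. These 3 were all higher in libraries labelled DKO, and the group median log2 fold change was 0.17. Dmc1, the meiosis-specific recombinase, had 18.7, 15.3 and 15.7 CPM in libraries labelled DKO and 12.6, 14.3 and 13.1 CPM in those labelled WT. All DKO values lay above all WT values, with DKO replicate 1 standing higher than the other DKO libraries. Its log2 fold change was 0.31 (SE 0.102; adjusted p = 0.0676). Meiob, which coats single-stranded DNA together with SPATA22, had 13.1, 11.7 and 12.4 CPM against 9.18, 8.83 and 11.5 CPM, DKO against WT. The groups stayed apart by a narrow gap between DKO replicate 2 and WT replicate 3 (log2 fold change 0.33, SE 0.114; adjusted p = 0.0763). Its partner Spata22 had 14.2, 11.7 and 10.2 CPM against 10.9, 8.39 and 10.4 CPM, with groups that overlapped (log2 fold change 0.28, interval -0.0211 to 0.584). Brca2, which loads the recombinases, had 49.5, 50.4 and 44.8 CPM in libraries labelled DKO and 43.0, 40.0 and 43.4 CPM in those labelled WT. Here too all DKO libraries were higher, by a small amount (log2 fold change 0.19, SE 0.0755; adjusted p = 0.103).

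Psmc3ip was the flattest member by fold change: 125, 124 and 129.9 CPM in libraries labelled DKO and 126, 125 and 126 CPM in those labelled WT. The log2 fold change was 0.0049 (interval -0.136 to 0.146). HOP2 works as a dimer with MND1, whose gene was far lower, at 2.52, 2.29 and 2.65 CPM against 2.50, 3.13 and 2.81 CPM. Mnd1 was the member of strand exchange with a log2 fold change below 0 (-0.18, interval -0.512 to 0.153). Rad51c, which acts in repair by homologous recombination, had 24.8, 23.9 and 23.5 CPM against 21.7, 19.8 and 23.3 CPM, and Brca1, which acts in break repair, had 19.3, 19.2 and 21.7 CPM against 20.6, 16.5 and 17.5 CPM. Rad51c libraries did not overlap and those of Brca1 did (log2 fold changes 0.15 and 0.15; adjusted p = 0.238 and 0.340).

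Of 7 crossover genes, 2 had an unadjusted p under 0.05, against 31.7% of all tested genes. The group median log2 fold change was 0.14. Mlh3, part of the MutL nuclease that resolves crossovers, had 51.8, 44.7 and 39.8 CPM in libraries labelled DKO and 38.0, 32.7 and 37.2 CPM in those labelled WT. The groups did not overlap, and DKO replicate 3 lay near WT replicate 1. The log2 fold change was 0.34 (SE 0.102; adjusted p = 0.0539). Hfm1, a helicase of crossover intermediates, had 49.5, 39.9 and 37.0 CPM against 35.6, 30.2 and 33.6 CPM. Its libraries were arranged alike (log2 fold change 0.35, SE 0.109; adjusted p = 0.0597). Msh4 and Msh5 encode the partners of the MutSγ clamp, and their estimates had opposite signs. Msh4 had 14.7, 13.5 and 12.7 CPM against 12.7, 11.8 and 12.5 CPM (log2 fold change 0.14, interval -0.0619 to 0.342). Msh5 had 11.4, 10.8 and 12.6 CPM against 13.4, 12.8 and 11.8 CPM (log2 fold change -0.13, interval -0.342 to 0.0845). Both sets of libraries overlapped. Ccnb1ip1, which encodes the ubiquitin ligase HEI10, had 8.00, 7.25 and 7.05 CPM against 6.45, 6.54 and 6.30 CPM, with no overlap and an adjusted p of 0.192. Exo1, an exonuclease, differed little (11.5, 11.4 and 11.8 CPM against 11.6, 11.1 and 10.6 CPM). Mus81, a nuclease of an alternative crossover route, had 25.9, 29.9 and 29.3 CPM against 31.5, 30.3 and 30.3 CPM. Every library labelled WT was higher, by a narrow gap (log2 fold change -0.11, interval -0.287 to 0.0642).

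Break signalling held the 1 member with an unadjusted p under 0.05 that was lower in libraries labelled DKO. H2afx, which encodes the histone variant H2AX that is phosphorylated around breaks and over the sex chromosomes, had 34.1, 38.0 and 26.5 CPM in libraries labelled DKO and 40.9, 40.9 and 44.3 CPM in those labelled WT. The groups did not overlap, and DKO replicate 3 was the lowest. The log2 fold change was -0.36 (interval -0.611 to -0.105; adjusted p = 0.0630), and with DESeq2 the adjusted p was 0.0198. The other 3 genes of the group had estimates above 0. Atr, the kinase that phosphorylates H2AX in meiosis, had 263, 248 and 236 CPM against 229, 209 and 217 CPM, with no overlap (log2 fold change 0.19, SE 0.0723; adjusted p = 0.0982). Mdc1, which spreads that mark over chromatin loops, had 308, 306 and 300.3 CPM against 300.2, 265 and 261 CPM. The groups did not overlap, although WT replicate 1 came close to level with DKO replicate 3 (log2 fold change 0.15; adjusted p = 0.201). Atm, the kinase that restrains SPO11, had 14.9, 14.2 and 14.2 CPM against 12.8, 13.6 and 12.7 CPM, with no overlap (log2 fold change 0.15; adjusted p = 0.239).

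The 6 cohesin genes all had estimates above 0, with a median log2 fold change of 0.36. Of these, 4 had an unadjusted p under 0.05, against 31.7% of all tested genes. Smc3, the ring subunit shared by mitotic and meiotic cohesin, had 124, 105 and 96.6 CPM in libraries labelled DKO and 92.4, 77.0 and 87.1 CPM in those labelled WT. All DKO libraries were higher, with replicate 3 closest to the WT libraries. The log2 fold change was 0.34 (SE 0.101, interval 0.122 to 0.566), and its adjusted p of 0.0508 was the smallest among the members. Smc1b, the meiotic counterpart of SMC1A, had 288, 248 and 202 CPM against 217, 156 and 196 CPM. Its groups overlapped, since WT replicate 1 exceeded DKO replicate 3 (log2 fold change 0.38, SE 0.137; adjusted p = 0.0874). Rad21l, a meiotic kleisin that closes the ring, had the highest log2 fold change of the members at few counts: 2.45, 1.73 and 1.36 CPM against 1.21, 1.31 and 1.03 CPM (0.62, interval 0.0801 to 1.15; adjusted p = 0.110). Sgol2a, which encodes the shugoshin that protects centromeric cohesin, had 62.8, 57.9 and 39.95 CPM against 42.0, 35.3 and 44.5 CPM. DKO replicate 3 lay among the WT libraries (log2 fold change 0.40, SE 0.147; adjusted p = 0.0931).

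The other meiotic kleisin gene and the meiotic STAG gene differed less. Rec8 had 79.9, 77.6 and 82.8 CPM in libraries labelled DKO and 76.9, 66.5 and 72.9 CPM in those labelled WT (log2 fold change 0.15, interval -0.0117 to 0.316; adjusted p = 0.187). Stag3 had 500.2, 500.6 and 509 CPM against 489, 467 and 466 CPM. No libraries of Rec8 or Stag3 overlapped, yet for Stag3 the log2 fold change was only 0.09 (interval -0.0577 to 0.230; adjusted p = 0.393). Spread within libraries labelled DKO was wide for Sgol2a (coefficient of variation 22.5%) and Smc1b (17.6%) and narrow for Rec8 (3.27%) and Stag3 (0.932%), so the cohesin genes with the higher estimates were also those that varied more among the libraries labelled DKO.

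**Figure D2:**
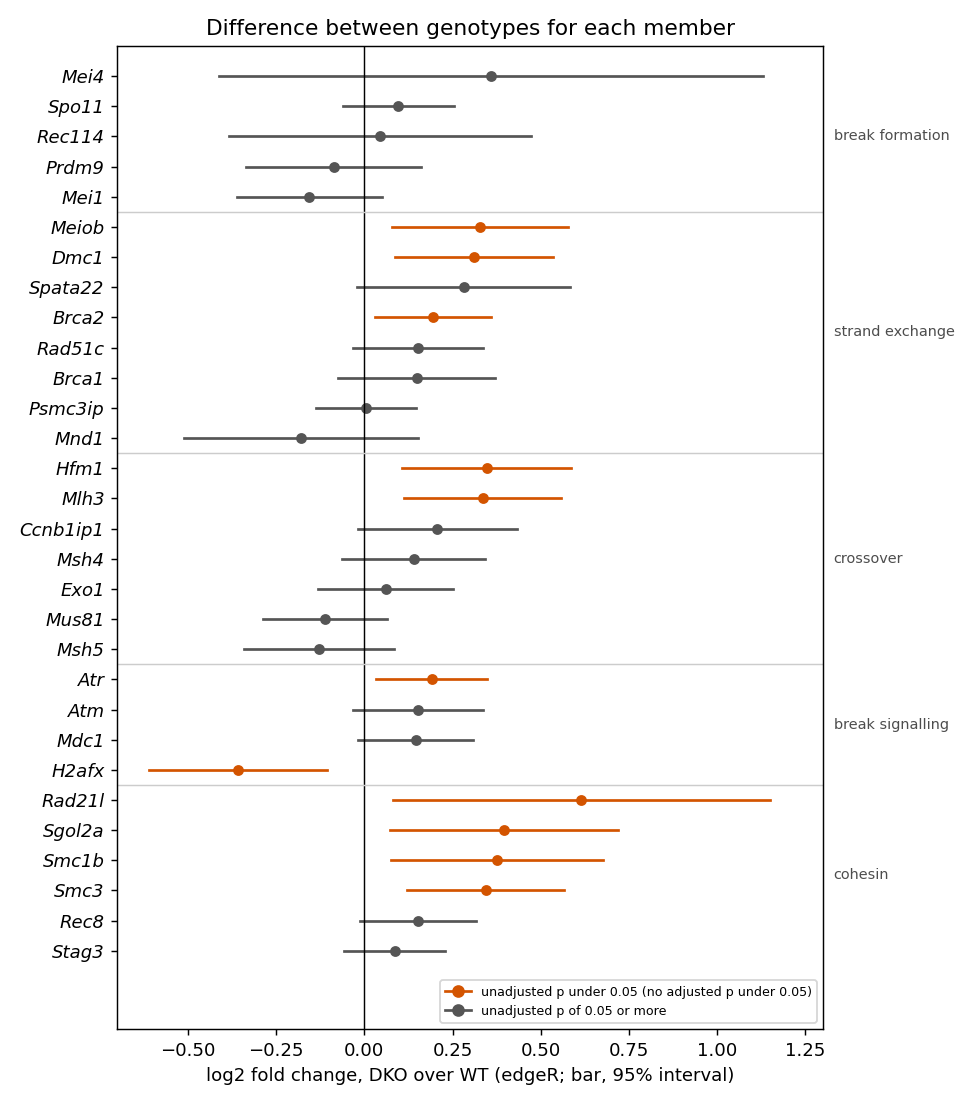
The log2 fold change of each member, libraries labelled DKO over those labelled WT, with its 95% interval from the edgeR fit of 3 against 3 libraries, by role. The 11 members in orange had an unadjusted p under 0.05 and none an adjusted p under 0.05; H2afx is the orange member below 0, and all 6 cohesin genes lie above 0.

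The rest of the pathway was read from lists of other genes in the same fit. Of 60 other recombination genes, 10 were called (16.7%, against 10.8% of all tested genes), 9 of them higher and 1 lower. The median log2 fold change of the list was 0.12. Rmi1, a partner of the BLM helicase that takes recombination intermediates apart, rose by a log2 fold change of 0.41 (SE 0.0798; 83.2 ± 7.12 against 62.7 ± 3.004 CPM, SD, n = 3 each; edgeR adjusted p = 0.0253). Rad17, Rad51ap2, Rbbp8, Hsf2bp, Tex11 and Fignl1 rose as well, by log2 fold changes of 0.43, 0.51, 0.40, 0.29, 0.35 and 0.35. RBBP8 trims break ends, HSF2BP brings BRCA2 to breaks, TEX11 promotes crossovers, and RAD17 loads the checkpoint clamp. Xrcc3, which acts in repair by homologous recombination, fell by 0.41 on the log2 scale (6.78 ± 0.491 against 9.01 ± 0.720 CPM, SD, n = 3 each; edgeR adjusted p = 0.0387). Of 15 tested other cohesin genes, 1 was called, Rad21, the mitotic kleisin gene, which rose by a log2 fold change of 0.32 (99.3 ± 10.6 against 79.3 ± 5.02 CPM, SD, n = 3 each; edgeR adjusted p = 0.0417). The median of that list was 0.24. The synaptonemal complex, which zips homologues together along their cohesin axes, was read from 12 genes including axis proteins. Of these 6 were called, 4 higher (Sycp3, Tex12, 4930447C04Rik and Hormad1, by log2 fold changes of 0.67, 0.50, 0.67 and 0.54) and 2 lower (Syce3 and Fkbp6, at -0.44 and -0.37), with a median of 0.29. Tex12 and Hormad1 were close to the threshold (edgeR adjusted p = 0.0491 and 0.0498), and the groups of Hormad1 overlapped. Hormad1 was not called by DESeq2, with DESeq2 size factors or with the effective-length offset. The calls in these 3 lists depended on which libraries were in the fit. Without DKO replicate 1, WT replicate 2 or WT replicate 3, 0 genes of the 3 lists were called, in either direction. Over all genes, only 11, 13 and 7 were called in those fits. With fragment length as a covariate 0 of the 3 lists were called, and 1 over all genes. Without DKO replicate 3, calls were 12 higher and 1 lower in other recombination, 6 higher in other cohesin, and 6 higher and 2 lower in the synaptonemal complex, with 17.7% of all genes called. Without DKO replicate 2 the calls were Rmi1, Sycp3 and 4930447C04Rik higher and Syce3 lower. Without WT replicate 1, higher calls numbered 3 in place of 9 among other recombination genes and 2 in place of 4 among synaptonemal complex genes. The 3 were Rad17, Rmi1 and Tex15, of which Tex15 was not among the 9. The lower call among other recombination genes was then Swi5, and Xrcc3 was not called. No test compares these lists with the members.

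Many members were highest or lowest in the same library. For 17 of 30 members the highest CPM was in DKO replicate 1, against 27.9% of tested genes, and for 15 of 30 the lowest was in WT replicate 2, against 28.3%. CPM fell from DKO replicate 1 to 2 to 3 in 15 of 30 members, against 23.2% of tested genes. It fell from WT replicate 1 to 3 to 2 in 12 of 30, against 25.7%. Both orders held in 7 of 30, against 9.38%. Taking in each library the median over members of log2 CPM minus the WT mean, values were 0.196, 0.139 and 0.103 in libraries labelled DKO and 0.0447, -0.0573 and 0.0111 in those labelled WT. The groups did not overlap, but the gap between DKO replicate 3 and WT replicate 1 was no wider than that between WT replicates 3 and 2. Mean fragment lengths stood in the same order: 317, 289 and 275.5 bases in libraries labelled DKO and 258, 230.4 and 246 bases in those labelled WT. Medians over all tested genes stayed between -0.0167 and 0.0116. With fragment length as a covariate, the members' median log2 fold change was 0.0204 and 17 of 30 were above 0. As fragment length does not overlap between the genotypes, the share of each in the members' differences cannot be told apart.

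**Figure D3:**
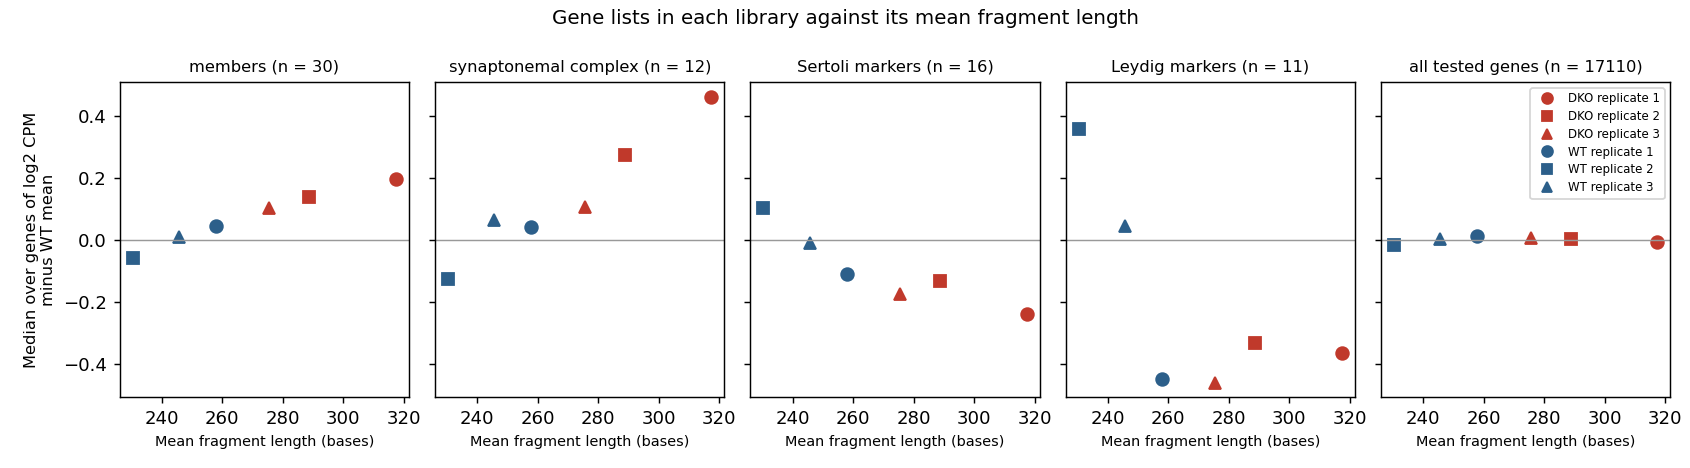
Median over a gene list of log2 CPM minus the WT mean, in each library, against the mean fragment length of that library, for the members, 12 synaptonemal complex genes, 16 Sertoli markers, 11 Leydig markers and all tested genes; red is labelled DKO and blue labelled WT. The members run from -0.0573 in WT replicate 2 to 0.196 in DKO replicate 1 in the order of fragment length, while all tested genes stay near 0.

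The markers of somatic cells that were called were all lower in libraries labelled DKO, and those of germ cells were called in both directions. Sertoli markers (16 genes, none at 0) summed to 1711 to 2033 TPM in libraries labelled DKO and 2142 to 2708 TPM in those labelled WT, with 4 of 16 called, all lower. Leydig markers (11 genes, none at 0) summed to 1163 to 1884.9 TPM against 1885.1 to 3887 TPM, with 4 of 11 called, all lower, and WT replicate 2 was the highest in both lists. When each library was left out in turn, from 0 to 6 Sertoli markers and from 0 to 7 Leydig markers were called, all lower: 0 of both without WT replicate 3, 1 Sertoli marker and 0 Leydig markers without WT replicate 2, 1 of each without DKO replicate 1, and 1 Sertoli marker and 4 Leydig markers without DKO replicate 2. Of 8 peritubular and vascular markers all had a log2 fold change below 0 and 1 was called (69.3 to 81.7 TPM in sum against 81.6 to 118 TPM). Of 8 macrophage markers 0 were called by edgeR, 3 at an unadjusted p under 0.05, and 5 were below 0 (61.1 to 74.6 TPM against 60.1 to 109 TPM). Late spermatocyte markers (15 genes) summed to 9393 to 9780 TPM against 9219 to 9452 TPM, with 0 of 15 called by edgeR and 6 at an unadjusted p under 0.05. Of these 15 markers, 12 were above 0 and 3 below, with a median log2 fold change of 0.118. The lean of the members (24 of 30 above 0, median 0.152) was thus also seen in this list. Of 15 tested spermatogonia markers 0 were called by edgeR and 1 had an unadjusted p under 0.05, with 7 above 0 and 8 below (141 to 163 TPM against 139.6 to 160.4 TPM in sum over 17 genes). Of 12 round spermatid markers 2 were called, both higher (3106 to 3268 TPM against 3007 to 3347 TPM). Of 12 elongating spermatid markers 3 were called, 1 higher and 2 lower. The calls among peritubular and vascular and among round spermatid markers were lost without DKO replicate 1, WT replicate 2 or WT replicate 3. In those fits only 11, 13 and 7 genes were called over all genes. Summed over the 30 members, levels were 978 to 1057 TPM against 972 to 976 TPM. The part of cell makeup in the members' differences was not tested.

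Transcript length also moved with the differences across all genes. Members had transcripts of 874 to 11960 bases. In the length class of tested genes with the longest transcripts (4456 bases or more), the median log2 fold change over all genes was 0.07; this class held 10 members, all above 0, with a median of 0.19. In the class with the shortest transcripts (1402 bases or less) the median over all genes was -0.11, and the 5 members there (H2afx, Mnd1, Psmc3ip, Rec114 and Spata22) had a median of 0.0049. In each of the 5 length classes the median of the members was above that of all genes. Spearman's rho between length and log2 fold change was 0.28 across the 30 members and 0.21 across all tested genes, as a description, since genes of a library share its fragmentation. With an offset from the effective lengths, the members' median was 0.13, and with each library's trend on length removed it was 0.13, with 24 of 30 above 0 in both.

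**Figure D4:**
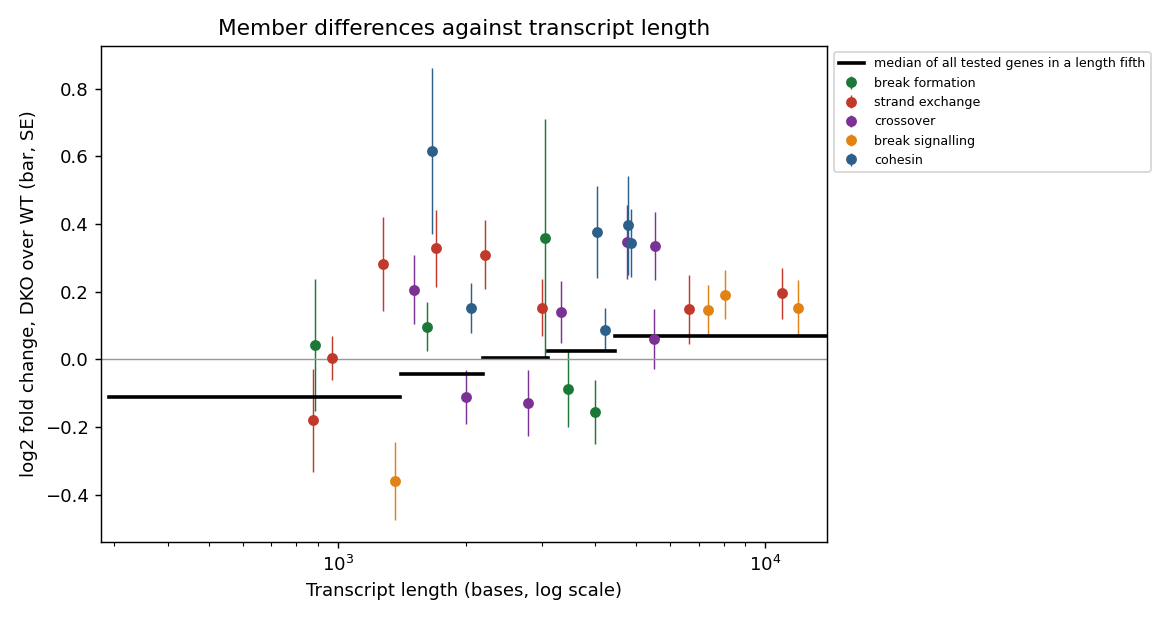
The log2 fold change of each member (labelled DKO over labelled WT; bars, SE) against its transcript length on a log axis, coloured by role; black bars are medians of all tested genes in 5 length classes, the last running past the axis. Black bars rise from -0.11 to 0.07, and the median of the members is above the bar in each of the 5 length classes.

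Ratios between partner genes ask whether members moved by unequal amounts within a library, and they do not depend on how libraries are scaled. For 10 pairs fixed by function, TPM ratios were tested by exact permutation of samples (two-sided); with 3 libraries in each group its smallest possible p is 0.1. Stag3 to Stag2, the meiotic against a mitotic STAG gene, was the pair without overlap: 16.3, 19.1 and 19.3 in libraries labelled DKO and 19.6, 21.04 and 20.01 in those labelled WT (exact p = 0.1; adjusted over 10 pairs, 0.429). Rec8 to Rad21l, the pair of meiotic kleisins, was 25.1, 34.8 and 47.5 against 49.3, 39.6 and 55.0, which overlapped (exact p = 0.2). Msh4 to Msh5 was 1.06, 1.04 and 0.825 against 0.779, 0.759 and 0.873, with DKO replicate 3 among the WT libraries (exact p = 0.2). Psmc3ip exceeded Mnd1 by 42.3, 46.2 and 42.2 times against 43.6, 34.7 and 38.7 times. Meiob to Spata22 was 0.636, 0.695 and 0.848 against 0.592, 0.747 and 0.785, which overlapped. Since the smallest p of this test is above 0.05, it could call no pair, and the ratios are a description.

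**Figure D5:**
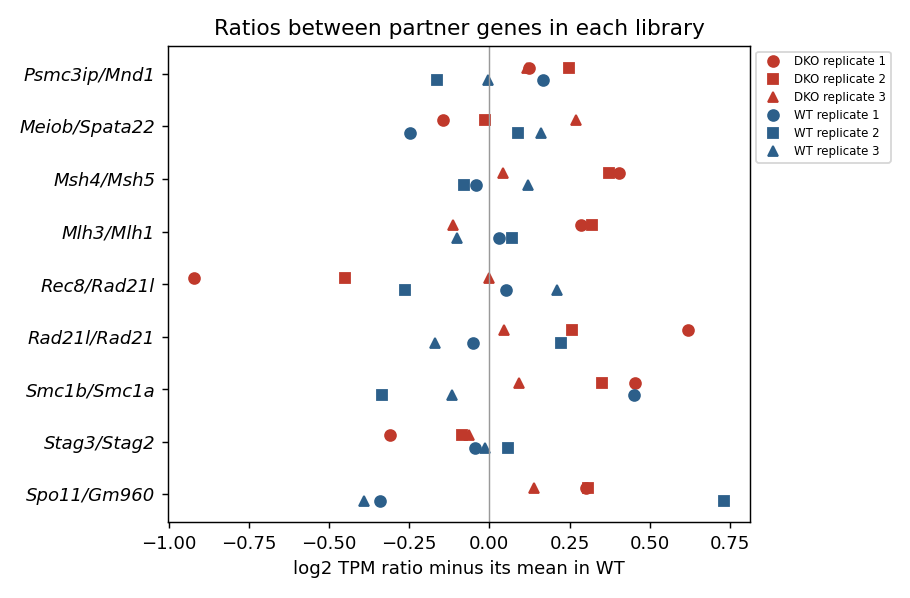
The log2 of the TPM ratio of each of 9 gene pairs in each library, minus its mean in libraries labelled WT; red is labelled DKO, blue labelled WT, and Gm960 is the older symbol of Top6bl. Red and blue overlap in 8 pairs, and Stag3/Stag2 is the pair in which they do not.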

How the data were processed

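Testis RNA libraries (3 labelled DKO, 3 labelled WT) were grouped by their genotype labels; replicate numbers follow the order of deposition and pair nothing. Per the submitters' processing notes, STAR 2.7.0f, RSEM 1.2.31, DESeq2 1.12.3 and build mm10 were used; strand handling is not given in the sources used here. Expected counts deposited by the authors (93.2% whole numbers) were rounded. TPM deposited by the authors gave levels and ratios, and the deposited FPKM values entered no step. Columns of length and effective length gave the mean fragment length of a library: the difference of both, plus 1, as a median over genes above 3000 bases.

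Genes were filtered with filterByExpr, scaled by TMM and tested with edgeR 4.0.16 (quasi-likelihood, genotype as the only term, Benjamini-Hochberg over 17110 genes, threshold 0.05). The scripts were tested on simulated data. Alternatives were other scaling, no filter, DESeq2 1.42.0, unrounded counts, effective-length and length-trend offsets, limma 3.58.1 on log2(TPM + 1), fragment length as a covariate, and leaving out each library. Members, lists and tests were chosen with earlier results of these data known. All members are named; outside them, both targeted genes, ratio partners, and called genes of the other recombination and cohesin lists, up to 8 by smallest p, were to be named, to which Rad21 and the called synaptonemal complex genes were added after their values were seen. Genes were matched to RefSeq GRCm38.p6 promoters by accession (symbol as a check). P-values measure the spread between these libraries, which are taken here as separate mice. Of the 10 partner ratios, 1 is not reported here.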

Additional observations from a re-analysis of the deposited data

How the results depend on the processing

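The 0 calls among members depended on tool and library. Without a count filter 3 members passed the threshold, all higher in libraries labelled DKO (Hfm1, Mlh3 and Smc3), against 6.48% of all genes called higher, and DESeq2 called 5 higher and 1 lower (H2afx) of the 27 it gave an adjusted p, against 11.6% and 9.19% of all genes. Across the 6 fits that each left out a library, from 0 to 7 members were called higher and 0 lower. Without DKO replicate 3 there were 7 (Brca2, Hfm1, Mlh3, Rad21l, Sgol2a, Smc1b and Smc3), with 17.7% of all genes called, and without WT replicate 1 there was 1 (Smc3), with 11.7% of all genes called. In all settings together, 22 members were never called. The members' median was 0.0699 with limma on log2(TPM + 1) and 0.0204 with fragment length as a covariate; when a library was left out it ran from 0.106 to 0.166. Exo1 changed sign with limma, to -0.0093. With the covariate, 13 members changed sign, none past the threshold: Spo11 -0.0693, Prdm9 0.0230, Mnd1 0.0048, Spata22 -0.31, Msh4 -0.0932, Mlh3 -0.0952, Hfm1 -0.14, Mus81 0.0239, Atr -0.00063, Rad21l -0.12, Smc1b -0.28, Smc3 -0.10 and Sgol2a -0.24. Over all genes, 1856 calls became 1 in that fit, 735 with limma, 2943 of 14123 with DESeq2, and 7 to 3029 when a library was left out (7 without WT replicate 3, 11 without DKO replicate 1, 13 without WT replicate 2, 655 without DKO replicate 2). When a library was left out, Psmc3ip ran from -0.0158 to 0.0114 and Rec114 from -0.0106 to 0.0939, and the other 28 members kept their sign. The cause of these changes was not tested. DESeq2 size factors, unrounded counts and both length offsets left 0 members called and every sign as it was. No paired analysis was possible because the labels carry no replicate number shared between the groups.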

Other observations

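The deposited length of a gene averages its transcripts by how abundant each was estimated to be, so it reads the isoform mix, which gene counts do not use. Of 9 members with several annotated transcripts, 2 had lengths that did not overlap between groups. The share of all genes with several transcripts that did so was not computed, so this count is only a description. Fragment lengths did not overlap between the groups either, and their part in these lengths was not tested. Sgol2a was at 4805, 4816 and 4833 bases in libraries labelled DKO and 4785, 4707 and 4663 bases in those labelled WT (exact two-sided permutation p = 0.1, the smallest that 3 against 3 libraries allow; adjusted over 9 genes, 0.45). Spo11, whose splice forms differ in when they appear in meiosis, was at 1615, 1617 and 1618 bases against 1619, 1623 and 1620 bases (exact p = 0.1; adjusted, 0.45), a difference of about 4 bases. For the other 7 the groups overlapped.

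Exons of some members overlap those of a neighbour in GENCODE M21. Without strand, reads of overlapping exons on opposite strands cannot be told apart, and on the same strand they cannot be even with it. The opposite-strand gene Kctd18 covers 49.7% of the exon bases of Sgol2a, Nptn 38.3% of Rec114 and Mlx 29.8% of Psmc3ip, and the same-strand model Gm49340 covers 80.5% of Spata22. Expected counts of these 4 members were whole numbers in all 6 libraries, so no read shows as split with another counted gene. Whether these neighbours were among the counted genes was not checked, and a read cannot be split with a gene that was not counted. How many reads of a neighbour were counted in full was not measured, so the counts of these 4 members keep that uncertainty. None of the 30 members lies on the chromosome of Abcc5 or Abcc12.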
